A study of Raphanus sativus with 12 samples.

Results

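The genes described here are the radish members of 5 families that shape leaves: the TCP, homeodomain-leucine zipper (HD-ZIP), growth-regulating factor (GRF), GRF1-interacting factor (GIF) and YABBY families. They were taken as all genes of the deposited expression table whose description names one of these families, whatever their level. This gave 146 of 30161 genes, made up of 35 TCP, 86 HD-ZIP, 14 GRF, 3 GIF and 8 YABBY genes. TCP and HD-ZIP genes were divided further into their classes by the Arabidopsis gene number in the description.

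The study sampled leaf blades of the diploid radish (Raphanus sativus) material XHT at 2 ages. At 30 days after sowing the plants were vegetative and at 120 days they were reproductive. Growth was under 16 hours of light at 25 °C and dark nights at 23 °C, with no treatment and the same genotype at both ages, so the groups differ in age and stage together, and these cannot be told apart. Each library pooled leaves of 3 plants, and each age had 3 input libraries (ordinary RNA-seq), on which the levels below rest, and 3 libraries enriched for RNA carrying N6-methyladenosine (m6A), a methylated base of messenger RNA.

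In Arabidopsis, GRF proteins and their GIF co-activators keep leaf cells dividing, while TCP proteins of the CIN class end division and start differentiation. TCP class I proteins act on growth and division, and CYC/TB1 class proteins hold back axillary buds. HD-ZIP III proteins specify the upper side of the leaf and the vasculature, YABBY proteins the lower side and the outgrowth of the blade, and HD-ZIP IV proteins the epidermis. HD-ZIP I and II proteins link growth to water status, abscisic acid, light and shade. The m6A mark is placed while messenger RNA is made, often near the stop codon, and is read by proteins that affect the stability and use of the transcript.

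Levels are in FPKM, which counts fragments per kilobase of transcript relative to the mapped fragments of the library, given as mean ± SD over the 3 libraries of an age, and single values are listed in the order of replicates 1, 2 and 3. Differences are log2 folds of 120 over 30 days computed from log2(FPKM + 1), so changes of low genes come out too small. A gene was tested if it reached 1 FPKM in at least 3 of the 6 libraries, and was called at an adjusted p under 0.05 in limma, a linear model fitted to all genes with variances shared between them. The sum of FPKM over all genes was 636795 to 694436, with unknown read numbers. Correlations on the log2 scale among the 120-day libraries were 0.971 to 0.985, whereas those of 30-day replicate 3 with the other 30-day libraries were 0.895 and 0.835, so counts of calls are also given without it where they changed. Of 21435 genes tested, 8.4% were called higher and 37.6% lower at 120 days, and the median log2 fold was −0.45. Centring each library on its median turned these shares into 13.8% higher and 10.2% lower, quantile normalisation into 12.4% and 13.1%, and leaving out 30-day replicate 3 into 10.2% and 42.8%. Each count of members is therefore read against the share for all genes.

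The blade label was checked against marker genes. The summed FPKM of 33 leaf blade genes (Rubisco small chain, Rubisco activase and chlorophyll a-b binding proteins) was 77266 to 101312 at 120 days and 14956 to 18652 at 30 days. A single Rubisco small chain gene (Rsa10035184) held 9279.33, 9292.12 and 10352.06 FPKM of the 30-day sums. Many chlorophyll a-b binding genes were far lower in 30-day replicate 3, such as Rsa10020583 (519.14, 620.03 and 20.54 FPKM). A few, such as Rsa10030712, were instead highest there (21.73, 25.28 and 50.22). Of 31 tested leaf blade genes, 18 were called higher and 1 lower, and 28 and 2 without that replicate. All genes gave 8.4% higher, and 10.2% without it. None of 11 floral organ genes was tested, and they summed to 1.29 to 4.46 FPKM at 120 days and 1.2 to 4.65 at 30 days. The shoot meristem genes KNAT1 and KNAT2 summed to at most 0.26 FPKM in any library. Genes of dividing cells (22, of which 13 were tested) summed to 117 to 133 FPKM at 120 days and 177 to 219 at 30 days, with 6 called higher and 4 lower. These are 46.2% and 30.8% of those tested, against 8.4% and 37.6% of all genes. All 6 called higher were replication licensing (MCM) genes. The 4 called lower were cyclin-B1, proliferating cell nuclear antigen and MCM6 genes, and after median centring 6 of the list were called higher and 0 lower. Cyclin-B1-2-like (Rsa10008368) held the most, at 85.8 ± 11.1 FPKM at 30 days and 44.1 ± 1.47 at 120 days. Stomatal lineage genes summed to 83.9, 32.1 and 23.9 FPKM at 30 days and 26.2 to 33.9 at 120 days, and senescence genes to 64.9, 183 and 60.8 at 30 days and 11.6 to 27.3 at 120 days. Of the stomatal sum, FAMA-like (Rsa10042311) held 57.53, 22.62 and 6.96 FPKM at 30 days and was not called. Of the senescence sum, NAC domain-containing protein 92-like (Rsa10024727) held 58.88, 174.49 and 42.49 FPKM at 30 days. The part of these differences in the results below was not tested, and in whole blades fewer cells of a type and less RNA per cell cannot be told apart.

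Of the 146 members, 94 were tested, 9 were called higher and 25 lower, and 60 were not called. The members' median log2 fold was −0.39 against −0.45 for all genes. The share of tested members called higher was 9.57%, near the 8.4% of all genes, and the share called lower was 26.6%, below the 37.6% of all genes. After median centring 13 members were called higher and 8 lower, and their median log2 fold was 0.05 against −0.01 for all genes. Without 30-day replicate 3 the counts were 10 higher and 37 lower. The 2 ages did not overlap in 30 tested members that were lower (all genes 49.1%) and in 11 that were higher (all genes 11.6%). The other 52 members were not tested. Of these, 39 stayed below 1 FPKM in every library and the highest value of any was 3.34 FPKM. The filter kept 4 members through their 30-day libraries alone (ATHB-7-like, HDG2, TCP20 and TCP15) and 2 through their 120-day libraries alone (ATHB-53 and the TCP4-like gene Rsa10034842), and such genes had to differ to be tested, so the counts are descriptions.

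**Figure D1:**
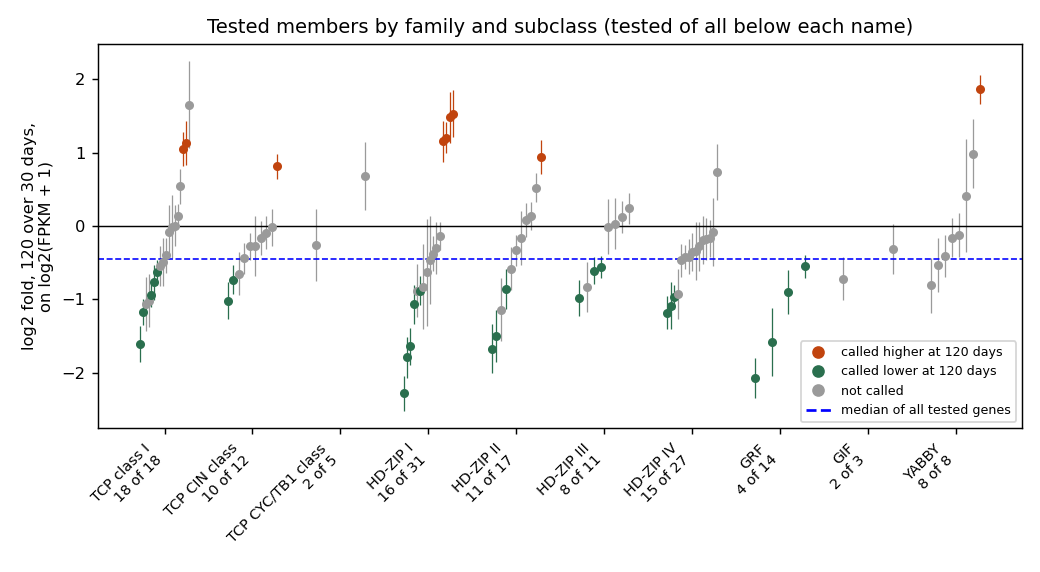
Log2 fold of 120 over 30 days from log2(FPKM + 1) (vertical axis) for each tested member, grouped by family and class (horizontal axis), with bars of 1 standard error from limma. All 4 tested GRF genes lie below 0 and below the median of all tested genes (dashed line, −0.45), and 7 of 8 YABBY genes are not called while YABBY 1 stands at 1.86.

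The GRF family was the family in which every tested member was called lower, where 37.6% of all tested genes were. Only 4 of 14 GRF genes were tested, and of the other 10 none was above 3.34 FPKM. GRF8 (Rsa10014367, R02, 6223539 to 6225056) had 5.33, 7.16 and 8.36 FPKM at 30 days and 0.61, 1.62 and 0.55 at 120 days. All 30-day libraries lay above all 120-day libraries. It fell from 6.95 ± 1.53 to 0.927 ± 0.601 FPKM (SD, n = 3 each; log2 fold −2.07 ± 0.27 SE, limma adjusted p = 0.00363), and it was called under all 14 alternatives tried. GRF8-like (Rsa10036617) had 3.84, 2.35 and 10.47 FPKM at 30 days and 0.64, 1.4 and 0.76 at 120 days, and also fell (log2 fold −1.58 ± 0.46, limma adjusted p = 0.0314). Its 30-day replicate 3 stood far above the other 30-day libraries. The most abundant GRF gene was GRF1 (Rsa10011732), with 6.99, 6.54 and 12.25 FPKM at 30 days against 2.63, 4.99 and 4.61 at 120 days, and it fell by 0.90 on the log2 scale (limma adjusted p = 0.0468). Without 30-day replicate 3, the highest of its libraries, the call of GRF1 was lost (log2 fold −0.65, limma adjusted p = 0.0682). GRF2 (Rsa10037334) had 2.34, 2.74 and 1.97 FPKM at 30 days and 1.3, 1.18 and 1.37 at 120 days (log2 fold −0.55, limma adjusted p = 0.0329). In GRF1, GRF2 and GRF8-like too, no 120-day library reached the lowest 30-day library. This held for 49.1% of all tested genes.

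After median centring GRF8 was still called lower (log2 fold −1.63, limma adjusted p = 0.0106), while GRF8-like (−1.15, 0.112), GRF1 (−0.47, 0.306) and GRF2 (−0.11, 0.667) were not. Leaving out any 120-day library or 30-day replicate 1 also ended those calls, as did leaving out 30-day replicate 2 for GRF2, with adjusted p of 0.0605 to 0.129 for the 3 genes over the left-out libraries that ended a call. Several untested GRF genes had their highest value in 30-day replicate 3. GRF7 (Rsa10011771) had 1.6, 0.85 and 3.34 FPKM at 30 days and 0.08, 0.27 and 0 at 120 days, and GRF3-like (Rsa10017106) had 0.5, 0 and 2.22 against 0, 0.16 and 0. Summed over all 14 genes, GRF transcripts reached 22.4, 20.8 and 44.1 FPKM at 30 days and 6.25, 11.3 and 8.88 at 120 days, so the ages did not overlap.

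Neither tested gene of the 3 GIF genes, whose proteins bind GRF proteins and assist them, was called. GIF2-like (Rsa10030154), the most abundant, had 31.68, 24.75 and 54.96 FPKM at 30 days and 20.31, 21.85 and 20.77 at 120 days (log2 fold −0.72, limma adjusted p = 0.0805). All its 30-day libraries were above all its 120-day libraries, and without 30-day replicate 2 it was called lower (limma adjusted p = 0.0261). GIF2 (Rsa10012611) had 9.38 ± 5.42 FPKM at 30 days and 6.73 ± 0.714 at 120 days, and its ages overlapped (log2 fold −0.31, limma adjusted p = 0.476). In both genes 30-day replicate 3 was the highest library.

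Among HD-ZIP I genes, 16 of 31 were tested, 4 were called higher (25%) and 5 lower (31.2%). Of all tested genes 8.4% were called higher and 37.6% lower, and 42.8% lower without 30-day replicate 3. Without 30-day replicate 3 there were 8 called lower, the 3 added being ATHB-5 (Rsa10016121, log2 fold −0.69, limma adjusted p = 0.0136), ATHB-5-like (Rsa10041941, −1.10, 0.0438) and ATHB-13-like (Rsa10024524, −1.38, 0.0422). The decreases included the member with the highest level of all families at 30 days. HAT5-like (Rsa10014733, R01, 51584872 to 51585899), named after the Arabidopsis factor also called ATHB-1 that acts in leaf development, had 291.43, 435.61 and 356.19 FPKM at 30 days and 55.98, 87.65 and 78.62 at 120 days. The ages were far apart. It fell from 361 ± 72.2 to 74.1 ± 16.3 FPKM (log2 fold −2.28 ± 0.24, limma adjusted p = 0.00256; 0.00213 to 0.0173 over the 14 alternatives), and its share of all HD-ZIP FPKM went from 26.9% to 9.49%. ATHB-16 (Rsa10026324), which in Arabidopsis restrains leaf cell expansion, had 136.93, 130.7 and 95.63 FPKM at 30 days and 29.35, 50.19 and 36.19 at 120 days. Every 30-day library exceeded every 120-day library, and it fell by 1.64 on the log2 scale (limma adjusted p = 0.005). Both other tested HAT5-like copies were also called lower at much lower levels. Rsa10031123 had 6.63 ± 2.43 against 2.57 ± 0.745 FPKM (log2 fold −1.07, limma adjusted p = 0.0221), and Rsa10025711 4.81 ± 0.72 against 2.18 ± 0.587 (−0.88, 0.0142). After median centring the adjusted p of these copies was 0.114 and 0.146, and neither was called without 120-day replicate 2 or 3. The call of Rsa10031123 was also lost without 30-day replicate 1, and that of Rsa10025711 stood at 0.0598 and 0.0596 without the 120-day libraries named.

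ATHB-7 and ATHB-12 are a pair of factors induced by water deficit and abscisic acid in Arabidopsis. The radish copy ATHB-7 (Rsa10009851), the second most abundant HD-ZIP gene, was not called, with 187.14, 187.15 and 220.31 FPKM at 30 days and 165.04, 214.6 and 162.02 at 120 days (log2 fold −0.14 ± 0.19, limma adjusted p = 0.551). The other copy, ATHB-7-like (Rsa10006330), was low, with 1.96, 1.98 and 4.48 FPKM at 30 days and 0.11, 0.06 and 0 at 120 days. No 120-day library came near a 30-day library, and it fell by 1.79 on the log2 scale (limma adjusted p = 0.00543). ATHB-12 (Rsa10027828) varied widely within an age, with 24.59, 12.88 and 76.54 FPKM at 30 days against 21.22, 25.32 and 17.25 at 120 days, and was not called (limma adjusted p = 0.55). ATHB-6-like (Rsa10010002), a member of the abscisic acid response, had 152 ± 47.8 against 113 ± 11.9 FPKM and was not called either (log2 fold −0.38, limma adjusted p = 0.232).

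The 4 increases of HD-ZIP I were all genes described as ATHB-21, ATHB-40 or ATHB-53, which in Arabidopsis act together downstream of the TCP protein BRANCHED1 in dormant buds. These names were grouped after their values were seen. Of 7 such genes 4 were tested, and all 4 were called higher, where 8.4% of all tested genes were. Because the group was made from these same values, the count is only a description. ATHB-53 (Rsa10028752) passed the filter through its 120-day libraries alone, so it had to be higher to be tested. Of the untested genes, ATHB-53-like Rsa10022159 had 0.25 FPKM at 30 days and 0.19 at 120 days. ATHB-53-like Rsa10016066 (0 and 0.583) and ATHB-21 Rsa10025871 (0 and 0.407) were higher at 120 days. ATHB-53 (Rsa10028752) had 0, 0.03 and 0.3 FPKM at 30 days and 1.59, 2 and 1.1 at 120 days (log2 fold 1.20 ± 0.21, limma adjusted p = 0.00744). An ATHB-21-like gene (Rsa10000973) had 0.24, 1.08 and 0 FPKM at 30 days and 2.4, 4.11 and 2.54 at 120 days (1.53 ± 0.32, 0.0121). Both were called under all 14 alternatives, and their ages did not overlap. The second ATHB-21-like gene (Rsa10031375) had 0.23, 0.97 and 1.22 FPKM at 30 days against 2.1, 3.48 and 3.23 at 120 days (1.15, limma adjusted p = 0.0187). ATHB-40-like (Rsa10026940) had 0.26, 1.04 and 0 FPKM against 1.74, 4.14 and 2.99 (1.48, limma adjusted p = 0.0165). These last calls were lost without 120-day replicate 2 or 3, and that of ATHB-40-like also without 30-day replicate 1, with adjusted p up to 0.0728 and 0.062. None of the 4 exceeded 4.14 FPKM in a library, so the increases were in transcripts of low abundance. ATHB-40-like and Rsa10000973 had close values, and whether they share reads was not tested. All 4 stayed called after median centring.

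In HD-ZIP II, 11 of 17 genes were tested, 1 was called higher and 3 lower. These are 9.09% and 27.3%, against 8.4% and 37.6% of all tested genes. HAT22-like (Rsa10026980) had 5.44, 11.15 and 4.56 FPKM at 30 days and 1.46, 1.83 and 0.93 at 120 days, with no overlap, and fell by 1.67 on the log2 scale (limma adjusted p = 0.00981). HAT22 (Rsa10026344) had 25.11, 13.47 and 32.95 FPKM against 9.9, 5.5 and 6.94 (log2 fold −1.50, limma adjusted p = 0.0167), and HAT9 (Rsa10010035) 28.7 ± 11.9 against 14.7 ± 0.845 (−0.86, 0.0416). After median centring HAT22 and HAT9 were not called (adjusted p of 0.0618 and 0.3), and both calls were also lost without 120-day replicate 2, 120-day replicate 3 or 30-day replicate 1, and that of HAT9 without 120-day replicate 1. The third copy described as HAT22-like (Rsa10037336) was the most abundant HD-ZIP II gene and was not called, with 93.8 ± 19.9 FPKM at 30 days and 102 ± 8.12 at 120 days (0.13, limma adjusted p = 0.595). ATHB-4 (Rsa10039378), which acts in shade avoidance and leaf polarity in Arabidopsis, rose from 0.79, 0.27 and 1.09 FPKM to 1.91, 2.71 and 2.09 (0.94, limma adjusted p = 0.0203). Its ages did not overlap, but leaving out any 120-day library ended the call (adjusted p up to 0.079).

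HAT4, also called ATHB-2, is the classic shade-induced HD-ZIP II gene of Arabidopsis. The radish HAT4 (Rsa10018919) had 40.28, 37.54 and 12.72 FPKM at 30 days and 13.55, 12.07 and 9.71 at 120 days. Replicate 3 of the 30-day leaves was level with the 120-day libraries, and the gene was not called (log2 fold −1.14 ± 0.43, limma adjusted p = 0.0704). Without that library it was called lower (−1.65, limma adjusted p = 0.00184). HAT14 (Rsa10020860) had 6.82 ± 1.78 FPKM at 30 days and 9.98 ± 0.234 at 120 days, did not overlap, and was called higher only after centring or quantile normalisation (0.52, limma adjusted p = 0.0738, and 0.0132 after centring).

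The HD-ZIP III class sets the upper side of the leaf and is held in check by a microRNA in Arabidopsis. It had 8 of 11 genes tested, none called higher and 3 lower. The share called lower, 37.5%, was that of all tested genes (37.6%). ATHB-15 (Rsa10010926), named after the factor also called CORONA, had 8.53, 4.55 and 7.23 FPKM at 30 days and 3.58, 2.18 and 2.92 at 120 days (log2 fold −0.98, limma adjusted p = 0.0226). REVOLUTA (Rsa10034311), which promotes upper-side identity and axillary meristems, had 8.03, 6.65 and 6.22 FPKM against 4.84, 4.29 and 4.01 (−0.56, limma adjusted p = 0.0266). ATHB-15-like (Rsa10031700) had 9.42, 8.57 and 12.81 FPKM against 6.63, 6.48 and 5.81 (−0.61, limma adjusted p = 0.033). As in 49.1% of all tested genes, every 30-day library was above every 120-day library in each of these 3 genes. None was called after median centring (adjusted p of 0.13, 0.521 and 0.489) or without 120-day replicate 2, 120-day replicate 3 or 30-day replicate 1, and leaving out 120-day replicate 1 also ended the calls of REVOLUTA and ATHB-15-like. Over those left-out libraries the adjusted p was 0.0569 to 0.115.

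ATHB-9, also called PHAVOLUTA (Rsa10039690), had 10, 4.7 and 12.64 FPKM at 30 days against 5.51, 3.99 and 3.66 at 120 days, overlapped between ages and was not called (log2 fold −0.83, limma adjusted p = 0.0877). It was called lower without 30-day replicate 2, its lowest 30-day library (limma adjusted p = 0.00967). ATHB-14, also called PHABULOSA (Rsa10020569), had 1.96 ± 1.16 FPKM at 30 days and 1.89 ± 0.6 at 120 days (0.03, 0.942). The 3 tested ATHB-8 genes, named after the factor of vascular precursor cells, were not called and lay at 0.913 ± 0.371 against 1.24 ± 0.284 FPKM (Rsa10000728), 1.4 ± 0.5 against 1.58 ± 0.356 (Rsa10002427) and 1.11 ± 0.951 against 0.97 ± 0.338 (Rsa10012028). The log2 folds of these 3 ran from −0.01 to 0.24, above those of REVOLUTA and both ATHB-15 genes. LITTLE ZIPPER 1 (Rsa10039414), whose protein binds HD-ZIP III proteins and blocks them, was also called lower, from 20.45, 22.76 and 14.77 FPKM to 2.79, 5.68 and 4.42 (log2 fold −1.96, limma adjusted p = 0.00389). The other tested gene of this name, LITTLE ZIPPER 2 (Rsa10029626), was not called. It had 4.1 ± 1.08 FPKM at 30 days and 3.47 ± 0.792 at 120 days (−0.18, limma adjusted p = 0.54).

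For HD-ZIP IV, the epidermal class, 15 of 27 genes were tested, none was called higher and 3 were called lower. The share called lower was 20%, against 37.6% of all tested genes. HDG2 (Rsa10017422), which promotes stomata in Arabidopsis, had 4.04, 2.13 and 3.84 FPKM at 30 days and 0.87, 0.99 and 0.75 at 120 days, with no overlap, and fell by 1.18 on the log2 scale (limma adjusted p = 0.0091). HDG11-like (Rsa10018653) had 4.08, 4.13 and 5.47 FPKM against 1.7, 1.9 and 1.87 (log2 fold −0.97, limma adjusted p = 0.0065), and HDG2-like (Rsa10020008) 5.24, 2.04 and 5.09 against 0.92, 1.53 and 1.44 (−1.09, 0.0315). After centring HDG2 was called (adjusted p = 0.0404) and the other two were not (0.0625 and 0.155). HDG2-like was also lost without any 1 of 5 libraries, 30-day replicate 2 being the exception, with adjusted p up to 0.155 over all alternatives.

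In several epidermal genes that were not called, the 30-day libraries differed widely. HDG1 (Rsa10029641) had 34.25, 30.49 and 15.72 FPKM at 30 days and 21.83, 22.41 and 22.92 at 120 days. PROTODERMAL FACTOR 2 (Rsa10007165), which maintains epidermal identity, had 16.63, 11.66 and 5.02 FPKM at 30 days and 7.89, 8.55 and 6.87 at 120 days. ANTHOCYANINLESS 2 (Rsa10022619), which affects epidermal pigment, had 21.14, 14.54 and 10.8 against 11.15, 10.35 and 11.4. In these 3 genes, shown after their values were seen, 30-day replicate 3 was the lowest 30-day library and lay within or below the range of the 120-day libraries. In ANTHOCYANINLESS 2-like (Rsa10025661) replicate 3 was also the lowest but lay above all 120-day libraries (20.18, 16.92 and 14.36 FPKM against 11.67, 13.5 and 12.29), and in the second PROTODERMAL FACTOR 2 gene (Rsa10004066) it was not the lowest (12.63, 6.72 and 6.76 against 6.76, 6.72 and 5.41). It was the lowest 30-day library in 9 of the 15 tested HD-ZIP IV genes (60%, against 39.1% of all tested genes). Without it 8 of the 15 were called lower in place of 3, where all genes gave 42.8% in place of 37.6%. The summed FPKM of the class showed the same order, at 179, 129 and 96.2 in the 30-day libraries and 96, 100.5 and 92.4 at 120 days. GLABRA 2 (Rsa10029744), which acts in trichomes, was not tested, at 2.02, 0.2 and 2.16 FPKM against 0.25, 0.07 and 0.2.

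All 18 TCP class I genes were tested, 2 were called higher and 5 lower. These are 11.1% and 27.8%, against 8.4% and 37.6% of all tested genes. TCP9 (Rsa10039428, R01, 1109347 to 1109919) had 9.39, 9.34 and 16.63 FPKM at 30 days and 2.59, 3.55 and 3.08 at 120 days. The ages were well apart, and it fell by 1.61 on the log2 scale (± 0.25 SE, limma adjusted p = 0.0054). TCP20 (Rsa10007531), which in Arabidopsis acts in cell division and nitrate signalling, had 1.41, 2.07 and 2.19 FPKM at 30 days and 0.35, 0.21 and 0.27 at 120 days (log2 fold −1.17, limma adjusted p = 0.00542). TCP20-like (Rsa10015524) had 6.58, 8.52 and 6.8 FPKM against 2.98, 3.48 and 3.45 (−0.94, limma adjusted p = 0.00632). Both TCP20 genes were lower without overlap between ages, as were 49.1% of all tested genes. TCP20-like was called in every fit but those with centring (limma adjusted p = 0.0844) and quantile normalisation (0.0801). TCP6 (Rsa10035401) and TCP15 (Rsa10004496) were called lower with small margins, at 2.68 ± 0.303 against 1.38 ± 0.295 FPKM (−0.63, limma adjusted p = 0.0253) and 2.12 ± 0.997 against 0.777 ± 0.0252 (−0.77, 0.0424). Leaving out any 120-day library ended both calls, and that of TCP15 was also lost without 30-day replicate 1 (adjusted p of 0.0608 to 0.118). After median centring neither was called (log2 folds −0.20 and −0.33, limma adjusted p of 0.462 and 0.314). Quantile normalisation and replicate number as a term in the model also ended both calls.

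The increases in class I were in TCP22-like and TCP7-like. TCP22-like (Rsa10030446) had 19.83, 23.42 and 14.34 FPKM at 30 days and 47.98, 41.21 and 32.5 at 120 days, so every 120-day library was above every 30-day library, and it rose by 1.05 on the log2 scale (limma adjusted p = 0.0136). TCP7-like (Rsa10033661) rose from 3.61 ± 1.57 to 8.7 ± 1.24 FPKM (1.13, limma adjusted p = 0.023). Neither kept its call without 120-day replicate 2, and TCP7-like lost it without each of the other 120-day libraries too (adjusted p up to 0.0548 and 0.0829). TCP21-like (Rsa10036371), named after a factor that feeds into the circadian clock, had the greatest log2 fold of the class and was not called. Its values were 10.91, 15.78 and 3.35 FPKM at 30 days and 44.84, 35.11 and 15.28 at 120 days, which overlap (1.65 ± 0.59, limma adjusted p = 0.0602, and 0.047 after centring). The second TCP22-like copy (Rsa10022883) was level, at 30.6 ± 4.79 against 33.5 ± 2.01 FPKM (0.14, limma adjusted p = 0.495). Replicate 3 was the lowest 30-day library in 11 of the 18 genes (61.1%, against 39.1% of all tested genes). Without it 9 of the 18 were called lower in place of 5, where all genes gave 42.8% in place of 37.6%.

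TCP CIN genes, which drive differentiation of leaf cells, were tested in 10 of 12 cases, with 1 called higher and 2 lower. These are 10% and 20%, against 8.4% and 37.6% of all tested genes. TCP4-like (Rsa10032207), the most abundant TCP gene, was not called, with 69, 129.11 and 39.4 FPKM at 30 days and 54.49, 62.95 and 58.04 at 120 days (log2 fold −0.27 ± 0.41, limma adjusted p = 0.601). Its 30-day libraries lay on both sides of the 120-day libraries. A second TCP4-like gene (Rsa10034842) was low and rose from 0.56, 0.35 and 0.2 FPKM to 1.33, 1.49 and 1.36 (0.81, limma adjusted p = 0.0124), a call lost without 120-day replicate 2 or 3 (0.0551 and 0.0507). Both TCP2-like genes were called lower, Rsa10025423 from 16 ± 4.91 to 7.22 ± 1.31 FPKM (−1.02, limma adjusted p = 0.0188) and Rsa10003182 from 8.87, 5.65 and 6.02 to 3.1, 3.81 and 4.08 (−0.73, 0.027). Neither overlapped between ages, and 49.1% of all tested genes were likewise lower without overlap. After median centring both TCP2-like calls were lost (adjusted p of 0.125 and 0.292), and both were also lost without 120-day replicate 1, 120-day replicate 3 or 30-day replicate 1, the second without 120-day replicate 2 as well (adjusted p for the second 0.0612 to 0.0894). TCP10, TCP13, TCP5 and TCP24-like genes made up the other 6 tested members and were not called, with log2 folds from −0.65 to −0.02.

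The CYC/TB1 class had 2 of 5 genes tested, both TCP18-like, named after BRANCHED1. Rsa10042518 had 1.5, 1.21 and 0.2 FPKM at 30 days and 0.86, 4.39 and 1.72 at 120 days (log2 fold 0.68, limma adjusted p = 0.257). Rsa10035071 had 8.67, 15.49 and 5.43 FPKM against 3.64, 12.33 and 8.57 (−0.26, limma adjusted p = 0.671). Both overlapped between ages. Their standard errors were 0.46 and 0.49 on the log2 scale, and the authors' deposited table marked Rsa10042518 as significantly higher at 120 days (log2 fold 1.26).

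YABBY genes were the only family in which every member was tested, 8 of 8. Of these 1 was called higher (12.5%, against 8.4% of all tested genes) and none lower (against 37.6%). YABBY 1 (Rsa10026159, R03, 14460714 to 14463384), named after FILAMENTOUS FLOWER, which specifies the lower side of lateral organs, had 1.12, 1.02 and 0.43 FPKM at 30 days and 5.77, 5.77 and 5.42 at 120 days. The lowest 120-day library was well above the highest 30-day library. It rose from 0.857 ± 0.373 to 5.65 ± 0.202 FPKM (log2 fold 1.86 ± 0.20, limma adjusted p = 0.00247; 0.000771 to 0.0199 over the 14 alternatives), and after median centring its log2 fold was 2.30. The other copy, YABBY 1-like (Rsa10006226), had 9.86, 4.34 and 6.48 FPKM at 30 days and 5.79, 2.2 and 2.67 at 120 days (−0.81, limma adjusted p = 0.115). At 30 days YABBY 1-like was the higher copy in each library, and at 120 days YABBY 1 was higher in replicates 2 and 3 and level with it in replicate 1. Near-identical copies share reads, and the rule for dividing those reads is not stated in these sources, so the values of single copies are uncertain.

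The 4 YABBY 2 genes act, in Arabidopsis, in the same lower-side pathway, and none was called. Rsa10019833, the most abundant, had 35.18, 16.65 and 32.31 FPKM at 30 days and 19.63, 20.05 and 19.87 at 120 days (log2 fold −0.41, limma adjusted p = 0.263). Rsa10037499 had 6.91, 4.62 and 13.91 FPKM against 13.27, 10.95 and 28.86 (0.98, limma adjusted p = 0.128), and replicate 3 was its highest library at both ages. It was called higher without 30-day replicate 3 (1.37, limma adjusted p = 0.0327). Rsa10000764 had 12.17, 7.17 and 1.66 FPKM against 12.4, 13.69 and 2.44, with replicate 3 the lowest at both ages. Rsa10041288 had 8.1 ± 3.62 FPKM at 30 days and 7 ± 1.32 at 120 days. YABBY 3 (Rsa10025709) had 12.4 ± 3.9 against 10.8 ± 2.22 FPKM (−0.16, limma adjusted p = 0.65), and YABBY 5 (Rsa10006605) 14.4 ± 6.89 against 8.94 ± 1.65 (−0.53, limma adjusted p = 0.273).

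Set side by side, the families differed in how much transcript they held and how it stood between ages. HD-ZIP genes summed to 1344 ± 69.4 FPKM at 30 days and 781 ± 66.3 at 120 days, with no overlap. Without HAT5-like (Rsa10014733) they summed to 983 ± 26.5 and 706 ± 57.8, a smaller difference that also did not overlap. GRF genes summed to 29.1 ± 13 and 8.8 ± 2.51 FPKM and GIF genes to 46.6 ± 21.3 and 27.8 ± 1.38 FPKM, in both without overlap. YABBY genes summed to 86.2 ± 26.3 and 83 ± 0.906 FPKM, so their totals overlapped and the 120-day libraries were alike. TCP genes summed to 299 ± 54.9 and 273 ± 25.8 FPKM, with class I at 142 ± 24.9 and 161 ± 27 and the CIN class at 146 ± 28.1 and 101 ± 4.82. The CIN totals did not overlap between ages, while the class I totals did. Over all tested genes the median log2 fold was −0.45, and 49.1% were lower at 120 days without overlap. These values are of single genes and not of totals. The FPKM of all genes summed to 653959 ± 19679 at 30 days and 689552 ± 8218 at 120 days. Whether lower totals without overlap are particular to these families was not tested. All members together made up 0.273 to 0.28% of the FPKM of a 30-day library and 0.158 to 0.183% of that of a 120-day library.

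**Figure D2:**
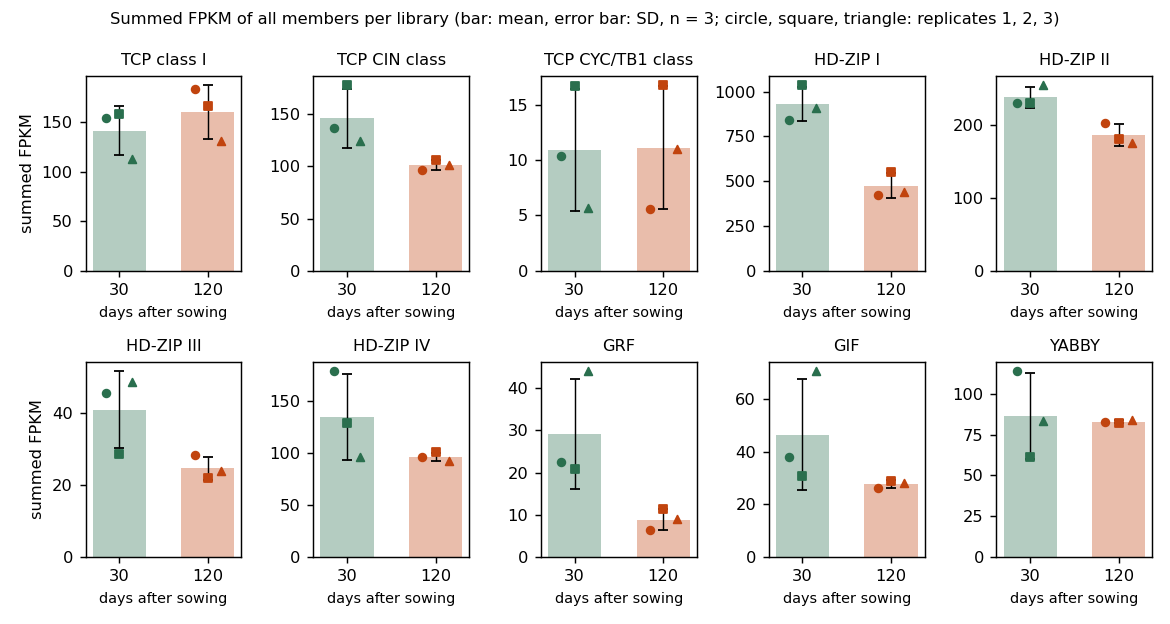
Summed FPKM of all members of each family or class (vertical axis, from 0) by age (horizontal axis, days after sowing), with bars for the mean, error bars for the SD of 3 libraries and symbols for single libraries. HD-ZIP I, HD-ZIP II, HD-ZIP III, TCP CIN class, GRF and GIF totals are lower at 120 days with no overlap. The YABBY totals of 120 days (82.1 to 83.9) lie within the 30-day range (61.4 to 114).

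The share of members tested differed by family, at 28.6% of GRF, 58.1% of HD-ZIP, 66.7% of GIF, 85.7% of TCP and 100% of YABBY genes. Median log2 folds of the tested members were −1.24 in GRF, −0.51 in GIF, −0.40 in HD-ZIP, −0.28 in TCP and −0.14 in YABBY, against −0.45 for all genes. After median centring they were −0.81, −0.08, 0.04, 0.16 and 0.30 in the same order, against −0.01. The GRF and GIF medians rest on 4 and 2 genes, and no test compared the families.

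Across all 14 alternatives, 11 of the 34 calls held in every one, 3 higher and 8 lower. The 3 increases were YABBY 1, ATHB-53 and an ATHB-21-like gene. The decreases were GRF8, HAT5-like (Rsa10014733), ATHB-16, ATHB-7-like, HAT22-like (Rsa10026980), HDG2, TCP9 and TCP20. Of these 11 genes, HAT5-like and ATHB-16 averaged above 100 FPKM at 30 days, and 7 stayed below 10 FPKM in every library. ATHB-7-like, HDG2, TCP20 and ATHB-53 are among those that passed the filter through 1 age alone.

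**Figure D3:**
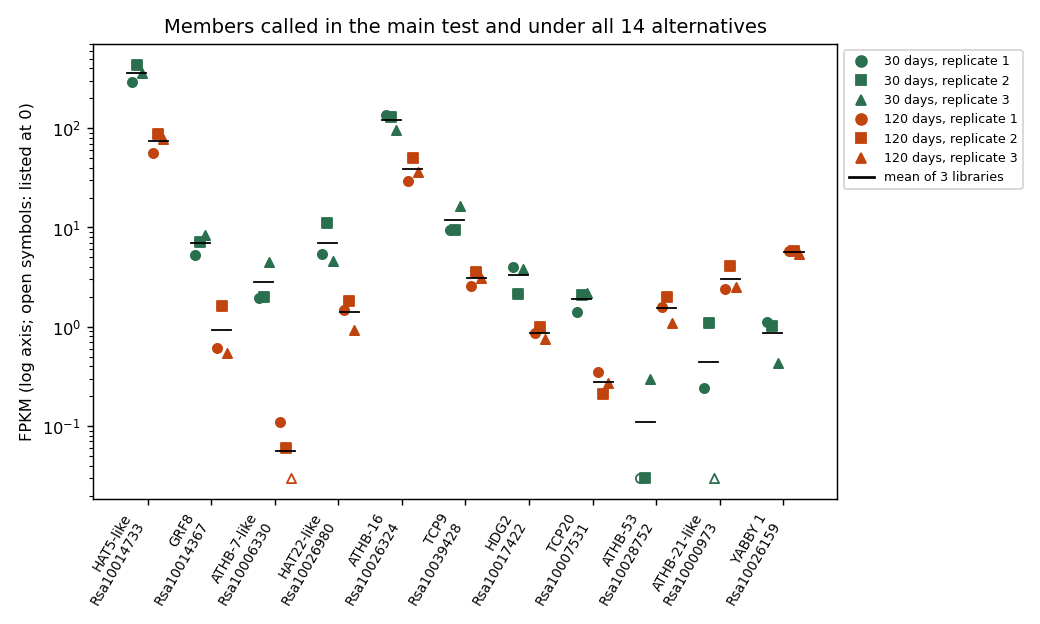
FPKM on a log axis (vertical) of the 11 members called in the main test and under all 14 alternatives (horizontal), with 1 symbol per library, lines at the means and open symbols where a gene is listed at 0. In each gene the libraries of the 2 ages do not overlap, and HAT5-like spans 55.98 to 435.61 FPKM.

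Radish carries several copies of most of these genes. The 146 members bear 77 names once "-like" is ignored, and 29 names had at least 2 tested copies. No name had 1 copy called higher and another called lower. In 6 names all tested copies were called lower (GRF8, ATHB-15, HAT5, HDG2, TCP2 and TCP20), in 1 all were called higher (ATHB-21), in 8 some copies were called and in 14 none was. Of all tested genes 37.6% were called lower and 8.4% higher. After median centring none of the 6 names kept all tested copies called lower, while ATHB-21 kept its higher calls.

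The authors' deposited table, made with their own test, marked 12 members as significantly higher and 17 as significantly lower at 120 days. Over the whole table, the authors' deposited table marked 6.45% of 30161 genes as higher and 11.5% as lower. Of the 29 members marked there, 26 were tested here and 21 had the same call. YABBY 2 (Rsa10037499) and TCP21-like (Rsa10036371) were among those marked higher in the authors' deposited table and not called here.

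Differential m6A peaks were described from the authors' deposited list, which holds for each peak a p-value, a false discovery rate (FDR) and 1 log2 fold, taken as 120 over 30 days, with no value per library. The list held 5476 peaks, of which 96.8% were higher at 120 days, and 17.2% of all genes in the expression table had at least 1. Among the members 15 genes had a peak, 1 each, which is 10.3% of 146. Of the tested members 11 had a peak, 11.7%, against 23.3% of all tested genes. The peaks lay in 6 TCP and 9 HD-ZIP genes, and no GRF, GIF or YABBY gene had one in the list.

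By the authors' deposited list, 13 of the 15 member peaks were higher at 120 days and 2 lower, with a median log2 fold of 0.988 against 0.504 over the whole list. The list annotates 9 of them (60%) to the 3′ UTR, 4 (26.7%) to the 5′ UTR and 2 (13.3%) to other exonic sequence, against 34.5%, 2.5% and 63% of all listed peaks. The peaks with the smallest p in the authors' deposited list were those of ATHB-5-like (Rsa10041941, log2 fold 0.92, FDR 2.88e-06), TCP22-like (Rsa10022883, 0.76, FDR 1.41e-05), REVOLUTA (0.80, FDR 1.95e-05) and TCP24-like (Rsa10040370, 0.57, FDR 0.000245). All 4 reach the 3′ end of their gene. These were the only 4 member peaks with an FDR of at most 0.01, and 5 of the 15 had an FDR above 0.05.

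The higher peaks with the greatest folds were in low transcripts. The authors' deposited list gives log2 folds of 3.0 for ATHB-7-like (Rsa10006330, FDR 0.0372), 2.63 for HDG2 (Rsa10017422, FDR 0.0191), 2.52 for the untested HDG11 (Rsa10023451, FDR 0.0871), 1.84 for TCP6 (FDR 0.0182) and 1.83 for TCP20 (Rsa10007531, FDR 0.0257). Except for HDG11, at 0.627 FPKM at 30 days and 0.367 at 120 days, each of these genes was called lower in expression. Further down the authors' deposited list stood TCP15 (log2 fold 1.30, FDR 0.055), TCP2-like (Rsa10003182, 0.99, FDR 0.0676) and HAT5-like (Rsa10025711, 0.89, FDR 0.0191), whose peak is listed over the whole length of the gene. The 2 lower peaks of the authors' deposited list were in untested genes, HAT5-like Rsa10000496 (−3.91, FDR 0.0155, 0.0933 FPKM at 30 days and 0.23 at 120 days) and ATHB-17-like Rsa10016396 (−1.13, FDR 0.0891). A second ATHB-17-like gene (Rsa10015667) had a higher peak (1.17, FDR 0.0603).

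All 11 tested members with a peak had a higher peak in the authors' deposited list. In expression 8 of them were called lower (37.6% of all tested genes were), 3 were not called and none was called higher. Of the 8, ATHB-7-like, HDG2, TCP20 and TCP15 passed the filter through libraries of the younger age alone. These genes had to be lower to be tested, so the counts of lower genes are only descriptions. The share called lower among all tested genes with a peak was not computed. Of the 11 log2 folds in expression, 10 were below 0, as were those of 15995 of all 21435 tested genes. The exception was TCP22-like (Rsa10022883), with a log2 fold of 0.14 in expression. The sources used here do not say whether the peak values take account of the transcript level in the input libraries, so a change in methylation and a change in transcript cannot be told apart from them.

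**Figure D4:**
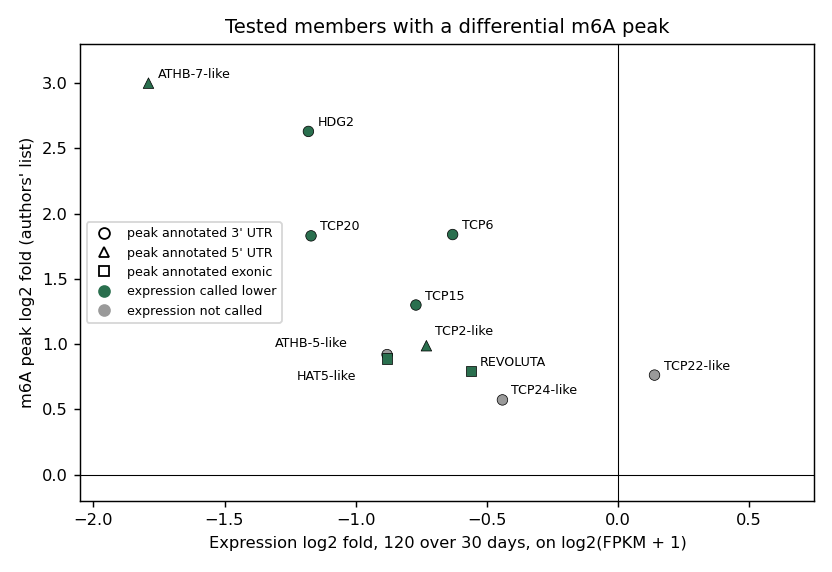
Log2 fold of the m6A peak in the authors' list (vertical axis) against log2 fold of expression on the log2(FPKM + 1) scale (horizontal axis), both 120 over 30 days, for the 11 tested members with a peak. All peak folds are above 0 and 10 of the 11 expression folds are below 0, from ATHB-7-like (3.0 and −1.79) to TCP22-like (0.76 and 0.14).

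Other genes of leaf patterning were read from a list of 81 genes that interact with these families or act beside them, of which 46 were tested. Of these 2 were called higher (4.35%, against 8.4% of all genes) and 18 lower (39.1%, near the 37.6% of all genes). Their median log2 fold was −0.52 against −0.45 for all genes, and after centring 4 were called higher and 6 lower, where all genes gave 13.8% and 10.2%. WUSCHEL-related homeobox 5 (Rsa10011139), known from the root stem cell niche, rose from 0.23, 0.03 and 0 FPKM to 3.53, 6.09 and 4.03 (log2 fold 2.33, limma adjusted p = 0.00213). WUSCHEL-related homeobox 1-like (Rsa10042529), which acts in blade outgrowth at the leaf margin, was listed at 0 in all 30-day libraries and had 2.69, 5.4 and 4.51 FPKM at 120 days (limma adjusted p = 0.00233). Both passed the filter through their 120-day libraries alone and so had to differ to be tested.

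The decreases of this list were led by BIG BROTHER-related-like (Rsa10031818), a ubiquitin ligase named after a factor that limits organ size, with 13.9, 14.34 and 14.35 FPKM at 30 days and 5.8, 6.03 and 5.87 at 120 days (log2 fold −1.14, limma adjusted p = 0.00244). Transcription factor AS1-like (Rsa10038891), which keeps meristem genes off in leaves, fell from 38.4 ± 5.16 to 13.9 ± 1.27 FPKM (−1.39, limma adjusted p = 0.00272). A second gene, AS1 (Rsa10011649), had 24.9 ± 8.55 FPKM at 30 days and 29.5 ± 2.17 at 120 days and was not called (0.29, limma adjusted p = 0.401). BEL1-like homeodomain proteins, which pair with KNOTTED1-like proteins, were called lower in 9 of 16 tested genes, where 37.6% of all genes were. After median centring 3 of the 16 were called lower and 1 higher. The 9 included Rsa10026944 (16.6 ± 0.772 to 5.33 ± 0.949 FPKM, −1.49, limma adjusted p = 0.00254) and the abundant Rsa10038773 (247 ± 31.6 to 87 ± 7.33 FPKM, −1.49, limma adjusted p = 0.00281). None of the 5 CUP-SHAPED COTYLEDON genes, which mark organ boundaries and are held back by CIN class TCP proteins in Arabidopsis, was tested. Their summed FPKM was 3.33, 1.35 and 2.13 at 30 days and 0.39, 0.37 and 0.19 at 120 days.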

How the data were processed

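Per the file headers, the authors deposited FPKM with 2 decimals for the 6 input libraries, with their log2 fold, p-value and q-value per gene, and a list of differential m6A peaks with a log2 fold, p-value and FDR per peak. Per the submitters' processing notes, fastp, FastQC, HISAT2, StringTie, HOMER and edgeR were used. Their versions and roles, the genome build and the peak caller are not given in the sources used here. That peak folds are of 120 over 30 days was taken from the comparison the list is named for.

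Members were found by description, and the sample titles gave each library's age and replicate number. The members and lists were chosen with earlier results of these data known. Expression was tested with limma 3.58.1 in R 4.3.3 (eBayes with trend, 2-sided) on log2(FPKM + 1), with age as the only term, over genes with at least 1 FPKM in at least 3 of 6 libraries, with Benjamini-Hochberg adjustment over all genes tested and a threshold of 0.05. The code was tested on simulated data. An exact test of 3 against 3 libraries cannot go below p = 0.1, so none was used. Named members were the 4 with the smallest p and the most abundant of each family, the smallest p of each class, every tested GRF, GIF, YABBY and HD-ZIP III gene and every gene with a peak, and from the partner list the 4 smallest p in each direction. Others were named after their values were seen.

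Read numbers are unknown, so no counting interval was given, and values of 0 may be failed estimates. Strand handling is not given, so overlapping genes could share reads. No sequences were used.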

Additional observations from a re-analysis of the deposited data

How the results depend on the processing

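The alternatives were a pseudocount of 0.1, no filter, a filter of 1 FPKM in 1 library, median centring, quantile normalisation, rescaling each library to the same FPKM sum, the replicate number as a block, no trend, and leaving out each library. Centring and quantile normalisation both gave 8 members lower (25 in the main fit), 2 TCP (7), 5 HD-ZIP (14) and 1 GRF (4), and they gave 6 and 5 TCP genes higher (3). All 9 increases but only 8 of 25 decreases were also called after centring. Over all genes, 8.4% higher and 37.6% lower became 13.8% and 10.2% with centring, and 12.4% and 13.1% with quantile normalisation. For the partner list centring and quantile normalisation gave 6 and 8 genes lower (18) and 4 higher each (2), and no filter gave 4 higher. Leaving out each library in turn gave 3 to 11 members higher and 10 to 37 lower. By family, the ranges were 0 to 4 TCP genes higher and 3 to 11 lower, 2 to 6 HD-ZIP genes higher and 6 to 23 lower, 1 to 3 GRF genes lower, 0 to 1 GIF genes lower, and 1 to 2 YABBY genes higher and 0 to 2 lower. Partner genes lower ranged from 10 to 23. Shares of all genes are given only without 30-day replicate 3 (10.2% higher and 42.8% lower). The ranges over the other left-out libraries therefore have no all-gene share beside them and are not read as particular to these families. Of the 34 calls, 14 were kept without 120-day replicate 2, 14 without 120-day replicate 3 and 32 without 30-day replicate 3. Fewer samples are tested when a library is left out, and why the counts rise without 30-day replicate 3 was not tested. Of 658 values of named genes under the alternatives, 575 stayed on their side of the threshold, 71 lost the call, 12 gained it, and no gene called in the main fit changed direction, though several uncalled genes changed sign, such as GIF2 (Rsa10012611, −0.31, and 0.12 after centring).

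With the replicate number as a block, 28 of the 34 calls were kept, and YABBY genes gave 2 higher and 1 lower in place of 1 and 0. Same-numbered libraries of the 2 ages deviated together with correlations of 0.272, 0.142 and 0.0814, each the highest for its library, but the labels do not say that a number marks shared plants or a shared day, so this is a hint from the data only. Of the 15 member peaks, 0 remained at an FDR of at most 0.01 and an absolute log2 fold of at least 1, and the joined table held the same 15. Unknown read numbers limit what can be said of genes near 1 FPKM.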

Other observations

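A few members lie next to each other on their chromosomes. HDG1 Rsa10029640 and Rsa10029641 are separated by 3689 bases on R07 and had 24.59, 16.93 and 6.01 FPKM against 34.25, 30.49 and 15.72 in the 30-day libraries, with the same order of libraries. At 120 days they had 13.57, 14.72 and 10.92 FPKM against 21.83, 22.41 and 22.92, and replicate 3 was the lowest library of the first and the highest of the second. The first spans 10500311 to 10500727 and the second 10504417 to 10507964, both on the plus strand. HAT5-like Rsa10025711, called lower, and YABBY 3, not called, are 9348 bases apart on R09.

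Among the 94 tested members, 30-day replicate 3 was the highest 30-day library in 32 (34%) and the lowest in 44 (46.8%), against 39.7% and 39.1% of all tested genes.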
